A study of Mus musculus with 8 samples.

Results

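The genes that build and load MHC class I molecules were followed in 2 fractions of endogenous CD8+ T cells from melanoma-bearing mice, one enriched for high IL-18Rα and the other left after that enrichment. The members were the 10 rows of the deposited table, among 47493, whose gene name was H2-K1, H2-D1, H2-Q7, H2-T23, H2-M3, B2m, Tap1, Tap2, Tapbp or Nlrc5. All 10 were found once each and all passed the filter on low values.

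A class I molecule is a heavy chain held together with β2-microglobulin (B2m) around a short peptide, and it shows CD8+ T cells and NK receptors a sample of the proteins made inside a cell. Peptides cut by the proteasome enter the endoplasmic reticulum through the TAP transporter, a dimer of Tap1 and Tap2, and tapasin (Tapbp) bridges TAP to empty heavy chains while they are loaded. Nlrc5 is the transactivator of class I genes, and interferons raise the transcription of the whole set in most nucleated cells, T cells included.

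The 8 libraries came from 4 female C57BL/6 mice aged 6 to 8 weeks, and every mouse gave 1 library of each fraction. Each mouse was inoculated intradermally with 200000 B16F10 cells, a mouse melanoma line, and received cyclophosphamide at 300 mg/kg on day 3, 2000000 primed Pmel-1 CD8+ T cells (melanoma-specific, from a receptor transgenic line) on day 5, IL-2 at 10000 IU for 3 days, and 200 μg of the CD4-depleting antibody GK1.5 once a week for 3 weeks from day 10. On day 25, Thy1.1-negative CD8+ T cells, a selection that leaves out the transferred cells, were isolated by negative selection from inguinal lymph nodes and spleen. Cells that an antibody to IL-18Rα retained on a magnetic column made the IL-18Rαhi-enriched fraction (n = 4), and the cells that passed through made the flow-through fraction (n = 4), which served as the control. Both fractions therefore share the tumor, the transfer and all treatments, and the comparison asks how endogenous CD8+ T cells rich in IL-18Rα differ from the others of the same mouse.

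Values are FPKM, fragment numbers divided by transcript length and by library size, so levels of different genes can be set side by side per length. Estimated depth was 14621772 to 17988709 fragments, with overlapping ranges in the fractions, and 11706 to 12288 genes per library reached 1 FPKM. Il18r1, which encodes IL-18Rα, averaged 30.6 FPKM in flow-through and 111 FPKM in enriched libraries (log2 fold change 1.85, SE 0.15, limma adjusted p = 0.000291), so the fractions followed their labels. Flow-through replicate 1 stood apart: the summed FPKM of 8 T-cell identity genes (Cd3d, Cd3e, Cd3g, Cd247, Lck, Zap70, Cd8a and Cd8b1) was 1280 there, 2048 to 2427 in the other flow-through libraries and 2403 to 2578 in the enriched ones. Its summed erythroid marker level was 2965 FPKM, the highest of the 8. Fold changes of the members are given below with and without this library, and other results where stated. In these bulk libraries fewer cells of a type and less RNA per cell cannot be told apart.

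The promoters of 4 members are shown first because they carry the short elements through which the class I set is usually described. The sequences are from RefSeq (GRCm38.p6), run 5′ to 3′ on the strand of the gene from 180 bases before its RefSeq start, and stop before the first annotated exon. They lie at chr17:34000348-34000527 (minus strand) for H2-K1, chr17:35438975-35439154 (plus) for H2-Q7, chr17:37270054-37270219 (plus) for H2-M3 and chr2:122147507-122147685 (plus) for B2m. Capitals mark matches, on either strand, to 5 patterns: an interferon response core (GAANNGAAA), a STAT site (TTCNNNGAA), an NF-kB site (GGG, any 2 bases, TTCCC), a CREB core (TGACG) and the NF-Y box (CCAAT, which reads ATTGG on the other strand).
H2-K1: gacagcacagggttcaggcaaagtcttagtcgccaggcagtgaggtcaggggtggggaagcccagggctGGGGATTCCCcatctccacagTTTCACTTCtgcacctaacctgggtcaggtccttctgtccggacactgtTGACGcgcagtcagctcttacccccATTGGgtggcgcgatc
H2-Q7: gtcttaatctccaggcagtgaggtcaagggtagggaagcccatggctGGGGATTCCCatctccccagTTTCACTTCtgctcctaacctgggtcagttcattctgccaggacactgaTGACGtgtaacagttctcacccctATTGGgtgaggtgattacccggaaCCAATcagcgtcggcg
H2-M3: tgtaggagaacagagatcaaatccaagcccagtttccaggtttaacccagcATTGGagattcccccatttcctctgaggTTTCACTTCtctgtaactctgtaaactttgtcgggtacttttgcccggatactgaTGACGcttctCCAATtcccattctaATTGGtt
B2m: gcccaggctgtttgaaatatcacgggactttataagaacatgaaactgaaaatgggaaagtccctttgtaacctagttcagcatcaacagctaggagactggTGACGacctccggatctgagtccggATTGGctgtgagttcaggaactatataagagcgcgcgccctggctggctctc

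In H2-K1 and H2-Q7 the elements stand in 1 order, with the NF-kB match first, the interferon response core in its reverse form (TTTCACTTC) behind it, then TGACG and the NF-Y box nearest the start. H2-M3 holds the same interferon core and a TGACG, without an NF-kB match in this stretch, and B2m holds TGACG and ATTGG. Windows of 300 bases (250 before to 50 after the start) were available for 8 members, namely all but Tap2 and Nlrc5. The NF-kB pattern was in 3 of these 8, H2-K1, H2-D1 and H2-Q7, and in 1.75% of all 32851 windows. The interferon response core was in 4 of 8, these 3 and H2-M3, and in 7.52% of all windows. H2-K1, H2-D1 and H2-Q7 held the same matches in the same order, so their hits are not independent of each other. The shares were not tested. TGACG was in 6 of 8 (20.8% of all windows), the NF-Y box in 8 of 8 (37.4%) and the STAT pattern in H2-M3 (8.3% of all windows). No 2 matches overlapped each other. A match is a description of the letters and not of a bound factor. Only these exact patterns were searched. A window without a match, such as that of B2m for the interferon and NF-kB patterns, may hold such an element with another spacing.

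None of the 10 members differed between the fractions. The share of all 12166 genes tested that passed the same threshold was 27.8%, with 14.1% higher and 13.7% lower in enriched libraries, by limma on log2(FPKM + 1) with a Benjamini-Hochberg adjusted p under 0.05. No member passed at an unadjusted p under 0.05 either. In none were all 4 enriched libraries above or all below the 4 flow-through libraries, which was so for 32.3% of all genes. All 10 fold changes were nonetheless above 0, from 0.10 (Tap2) to 0.32 (H2-D1) on the log2 scale with a median of 0.19, whereas the median of all genes was -0.02 and 48.0% of genes were above 0. The members share libraries, so their common sign is 1 pattern and not 10. Adjusted p-values ran from 0.144 to 0.643, and the 95% intervals reached at most 1.70-fold higher (H2-M3) and 0.792-fold (H2-T23) in enriched libraries. With the mouse as a block, 44.9% of all genes passed (22.2% higher and 22.7% lower) and again none of the members, whose adjusted p-values were then 0.0582 to 0.496.

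**Figure D1:**
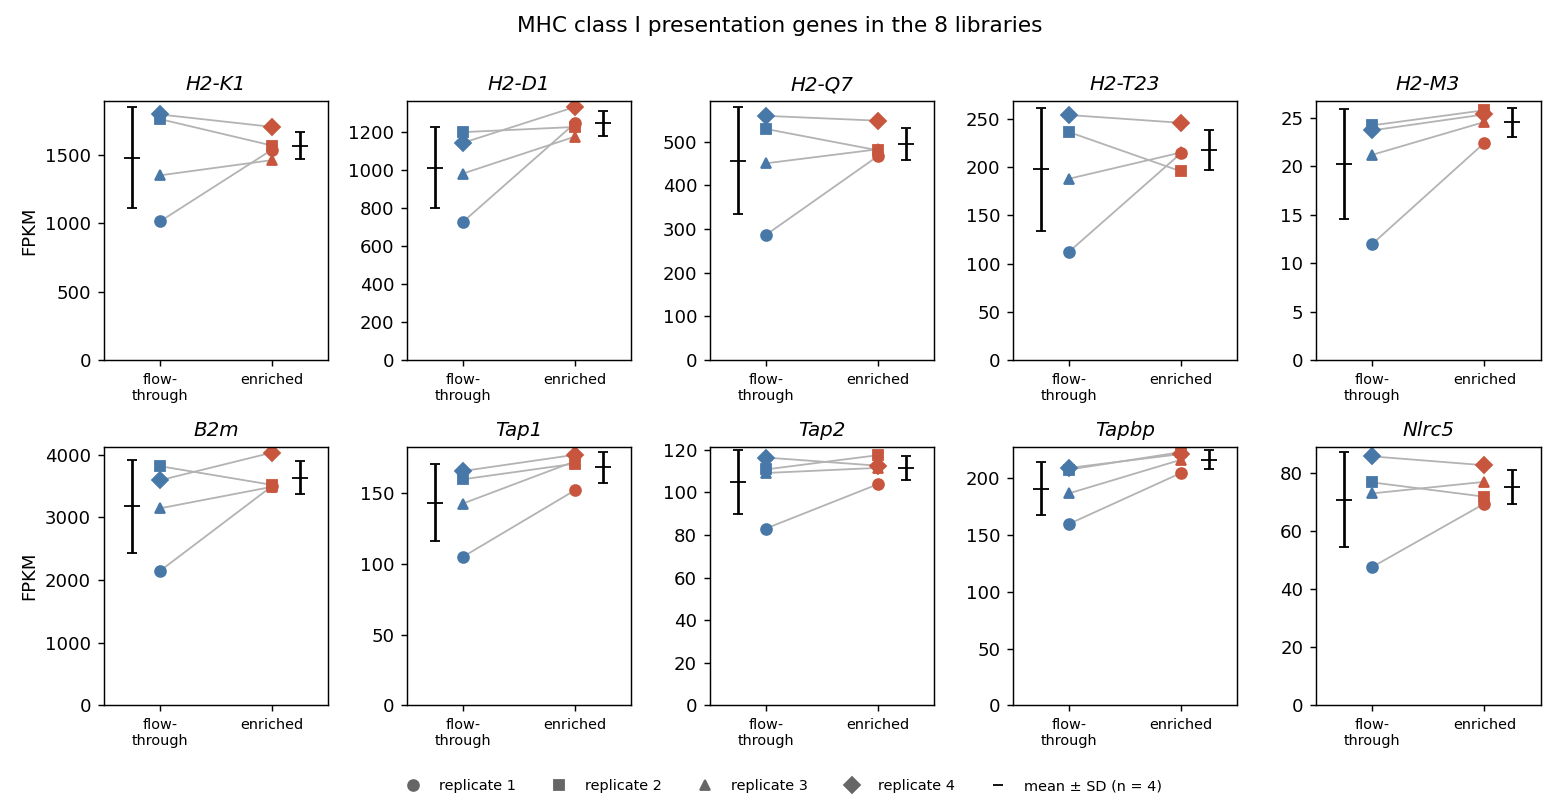
FPKM of the 10 members (vertical axes from 0) in flow-through and IL-18Rαhi-enriched libraries, with 1 symbol per replicate number, grey lines joining the fractions of a mouse and black bars for mean ± SD (n = 4). In each panel the lowest point is flow-through replicate 1, and the 2 groups overlap.

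The classical heavy chains H2-K1 and H2-D1 present peptides to CD8+ T cells and were the most abundant heavy chains. H2-K1 (ENSMUSG00000061232, chr17:33996017-34000347, minus strand) was at 1012, 1760, 1349 and 1794 FPKM in flow-through replicates 1 to 4 and at 1537, 1566, 1461 and 1703 FPKM in the enriched ones. The enriched libraries all lay inside the flow-through range. The means were 1479 ± 371 and 1567 ± 101 FPKM (SD, n = 4 each), a difference of 0.12 on the log2 scale (SE 0.18, 95% interval -0.29 to 0.52, limma adjusted p = 0.643). Without flow-through replicate 1 it was -0.05 (adjusted p = 0.772).

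H2-D1 (ENSMUSG00000073411, chr17:35262730-35267499, plus strand) was at 727, 1199, 981 and 1143 FPKM in flow-through and 1248, 1227, 1176 and 1333 FPKM in enriched libraries. Only enriched replicate 3 fell below a flow-through library, and the enriched library was the higher of the pair in 4 of 4 mice. The means were 1012 ± 212 and 1246 ± 65.2 FPKM, a log2 difference of 0.32 (SE 0.15, 95% interval -0.02 to 0.67, limma adjusted p = 0.144). This was the member nearest to the threshold: after quantile normalization, which gives all libraries the same distribution, it passed, with a log2 fold change of 0.44 and an adjusted p of 0.0229, where 28.0% of all genes passed. Without flow-through replicate 1 its value was 0.17 (adjusted p = 0.186).

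The nonclassical heavy chains H2-Q7 (a Qa-2 chain), H2-T23 (Qa-1, the ligand of CD94-NKG2 receptors) and H2-M3 (which binds formylated peptides) are less polymorphic and present narrower sets of peptides. H2-Q7 (ENSMUSG00000060550, chr17:35439155-35443773, plus strand) was at 287, 530, 451 and 560 FPKM in flow-through and 468, 480, 483 and 549 FPKM in enriched libraries. The enriched libraries lay within the flow-through range, and the change was 0.16 on the log2 scale (SE 0.20, limma adjusted p = 0.572). It was -0.05 without flow-through replicate 1 and -0.07 after quantile normalization. Of the 150-base stretches in H2-Q7 transcripts, 6.87% also occur in H2-Q10, H2-Q6 or H2-Q5, so reads may be split among these genes, and H2-Q6 and H2-Q7 summed gave a log2 fold change of 0.12 (limma adjusted p = 0.671).

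H2-T23 (ENSMUSG00000067212, chr17:36029773-36032855, minus strand) was at 112, 237, 188 and 254 FPKM in flow-through and 215, 196, 215 and 246 FPKM in enriched libraries. Its coefficient of variation between flow-through libraries was 32.1%, the highest of the members, and 15.1% without replicate 1, next to 15.2% for H2-K1, and the groups overlapped (log2 fold change 0.20, SE 0.24, limma adjusted p = 0.549, and -0.05 without flow-through replicate 1). H2-M3 (ENSMUSG00000016206, chr17:37270220-37274484, plus strand), the member of lowest level, was at 11.95, 24.2, 21.2 and 23.7 FPKM in flow-through and 22.4, 25.8, 24.6 and 25.4 FPKM in enriched libraries. The enriched library was higher in 4 of 4 mice, although the groups overlapped, and the change on the log2 scale was 0.31 (SE 0.20, limma adjusted p = 0.276) with all libraries and 0.09 without flow-through replicate 1.

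B2m (ENSMUSG00000060802, chr2:122147686-122153083, plus strand), the light chain shared by every class I heavy chain, was among the most abundant transcripts of the cells, at rank 9 to 40 of all genes. Its level was 2143, 3815, 3143 and 3590 FPKM in flow-through and 3500, 3516, 3486 and 4032 FPKM in enriched libraries. Flow-through replicate 1 was low and enriched replicate 4 high, and the other 6 libraries lay between. The means were 3173 ± 741 and 3634 ± 266 FPKM, a log2 difference of 0.23 (SE 0.17, 95% interval -0.17 to 0.62, limma adjusted p = 0.356), and 0.05 without flow-through replicate 1.

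Of the transport and loading genes, Tap1 (ENSMUSG00000037321, chr17:34187553-34197225, plus strand) was at 105, 160, 143 and 166 FPKM in flow-through and 152, 171, 173 and 177 FPKM in enriched libraries. All enriched libraries but replicate 1 were above all flow-through libraries. Its change was 0.25 on the log2 scale (SE 0.14, limma adjusted p = 0.218) and became 0.11 without flow-through replicate 1. Tap2 (ENSMUSG00000024339, chr17:34203527-34216321, plus strand) was at 83.1, 110.8, 109 and 116 FPKM in flow-through and 104, 118, 112 and 113 FPKM in enriched libraries. It had the smallest fold change of the members, 0.10 on the log2 scale (SE 0.11, limma adjusted p = 0.540), and -0.01 without flow-through replicate 1.

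Tapbp (ENSMUSG00000024308, chr17:33915899-33929292, plus strand) was at 159, 207, 186 and 209 FPKM in flow-through and 204, 222, 216 and 221 FPKM in enriched libraries. It was higher in the enriched library of 4 of 4 mice and varied least among enriched libraries (coefficient of variation 3.81%), and its change was 0.19 on the log2 scale (SE 0.10, limma adjusted p = 0.175), or 0.11 without flow-through replicate 1. The transactivator gene Nlrc5 (ENSMUSG00000074151, chr8:94434356-94527272, plus strand) was at 47.7, 76.9, 73.1 and 85.8 FPKM in flow-through and 69.5, 71.9, 77.0 and 82.8 FPKM in enriched libraries. The groups overlapped, and its change of 0.12 on the log2 scale (SE 0.17, limma adjusted p = 0.634) turned to -0.06 without flow-through replicate 1. Exons of Tap1 share 212 bases with Psmb9, those of Tap2 share 533 with Gm15821 and 165 with Gm20496, those of Tapbp share 904 with Gm19412, and those of Nlrc5 share 78 with 9330175E14Rik, all on the opposite strand. Tapbp also shares 149 exon bases with Zbtb22 on its own strand. The paper names no strand setting and gives default values for the other Cufflinks options. Reads of such partners may therefore not be told apart in these stretches.

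The order of the mean levels was B2m, H2-K1, H2-D1, H2-Q7, H2-T23, Tapbp, Tap1, Tap2, Nlrc5 and H2-M3. Neighbours in this order kept it in 8 of 8 libraries, except that H2-T23 exceeded Tapbp in 5 of 8. Across enriched libraries the ranges of neighbours were apart except for H2-T23 and Tapbp. Across flow-through libraries the ranges also overlapped for H2-K1 and H2-D1, Tapbp and Tap1, Tap1 and Tap2, and Tap2 and Nlrc5.

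The members were more uniform among enriched libraries, with coefficients of variation of 3.81% to 9.58%, than among flow-through libraries, with 12.1% to 32.1%. Without flow-through replicate 1 the latter were 3.38% (Tap2) to 15.2% (H2-K1), a range that overlaps the enriched one. They were still above the enriched value for 9 of 10 members, all but Tap2. The share of all genes more uniform among enriched libraries was not computed, so this is not shown to be particular to the members. Flow-through replicate 1 was the lowest of the 8 libraries for 10 of 10 members, and for 33.0% of all genes. On the log2 scale it lay 0.33 (Tapbp) to 0.99 (H2-T23) below the mean of the other flow-through libraries, with a median of -0.69 for the members and of -0.05 for all genes. By mouse, members were higher in the enriched library for 10 of 10 in mouse 1 (median difference 0.65), 5 of 10 in mouse 2 (-0.03), 10 of 10 in mouse 3 (0.17) and 5 of 10 in mouse 4 (0.03), where 48.1% to 48.8% of all genes were higher. H2-D1, H2-M3, Tap1 and Tapbp were the members higher in every mouse, and the share of all genes higher in every mouse was not computed.

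Without flow-through replicate 1, 5 of the 10 members were above 0 and 5 below, from -0.06 (Nlrc5) to 0.17 (H2-D1), and adjusted p-values were 0.186 to 0.925. The 95% intervals then reached from 0.798-fold to 1.30-fold. When each library was divided by the geometric mean of its 8 T-cell identity genes, the median of all genes moved from -0.02 to -0.33, that of the members was -0.15, and 10 of 10 members were below 0, from -0.25 (Tap2) to -0.02 (H2-D1 and H2-M3). No member passed after this scaling (adjusted p = 0.215 to 0.925), where 13.4% of all genes did. B2m on this scale was at 3701, 3614, 3403 and 3279 in flow-through and 2993, 3194, 3100 and 3608 in enriched libraries. Flow-through replicate 1 was then the highest flow-through library for 7 of 10 members and the lowest of all for none. The sign of the members against 0 thus depended on 1 library and on the scale, and neither sign was held throughout. The scaling also lowered the median of all genes, so the fall of the members below 0 was not particular to them. Set beside all genes, the members had the higher median: 0.19 against -0.02 in the main fit and -0.15 against -0.33 after the scaling. The medians were 0.14 and -0.03 after quantile normalization, and 0.02 and -0.03 when flow-through replicate 1 was left out. The difference between these medians was not tested.

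**Figure D2:**
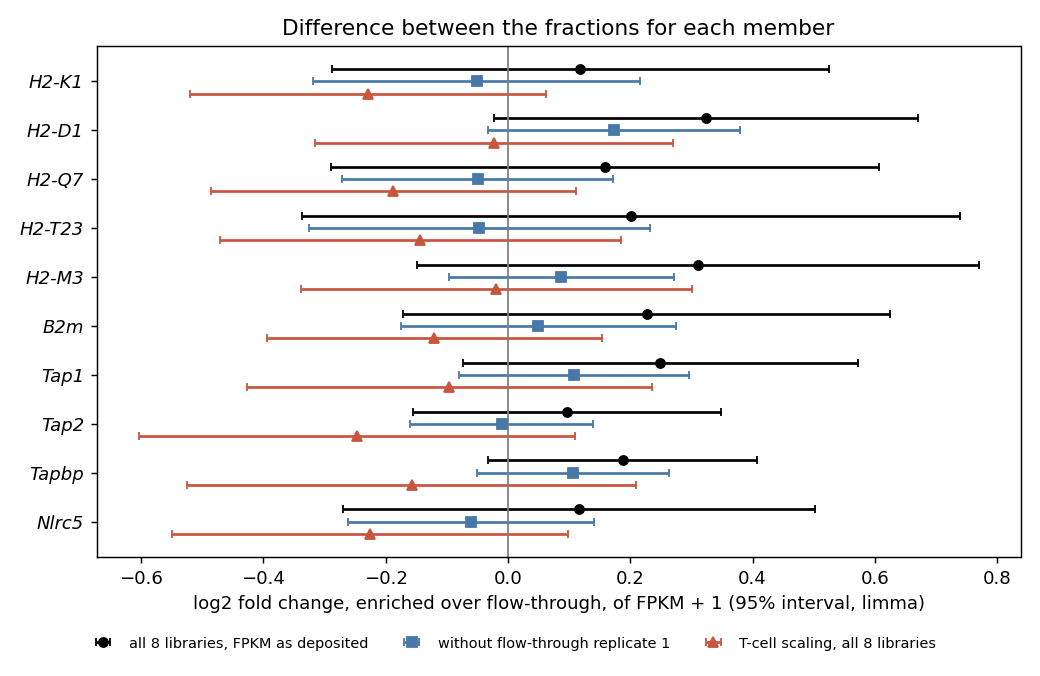
Log2 fold change of FPKM + 1, enriched over flow-through, for each member (points) with its 95% limma interval (bars), with all libraries, without flow-through replicate 1 and after T-cell scaling. All 30 intervals include 0, and the points move from all above 0 to 5 of 10 above 0 and to none.

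Flow-through replicate 1 was also the lowest library for T-cell identity genes. Relative to the mean of the 8 libraries their level was 0.579, 1.06, 0.924 and 1.09 in flow-through replicates 1 to 4 and 1.17, 1.10, 1.12 and 1.12 in the enriched ones. Among the other flow-through libraries, replicate 3, where this level was lowest, was also the lowest for every member. B2m, for example, was at 3143 FPKM there and at 3815 and 3590 FPKM in replicates 2 and 4. Among enriched libraries, replicate 1, where the level was highest, was the lowest for 6 of 10 members. The part of T-cell content in the low member levels of flow-through replicate 1 was not tested.

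**Figure D3:**
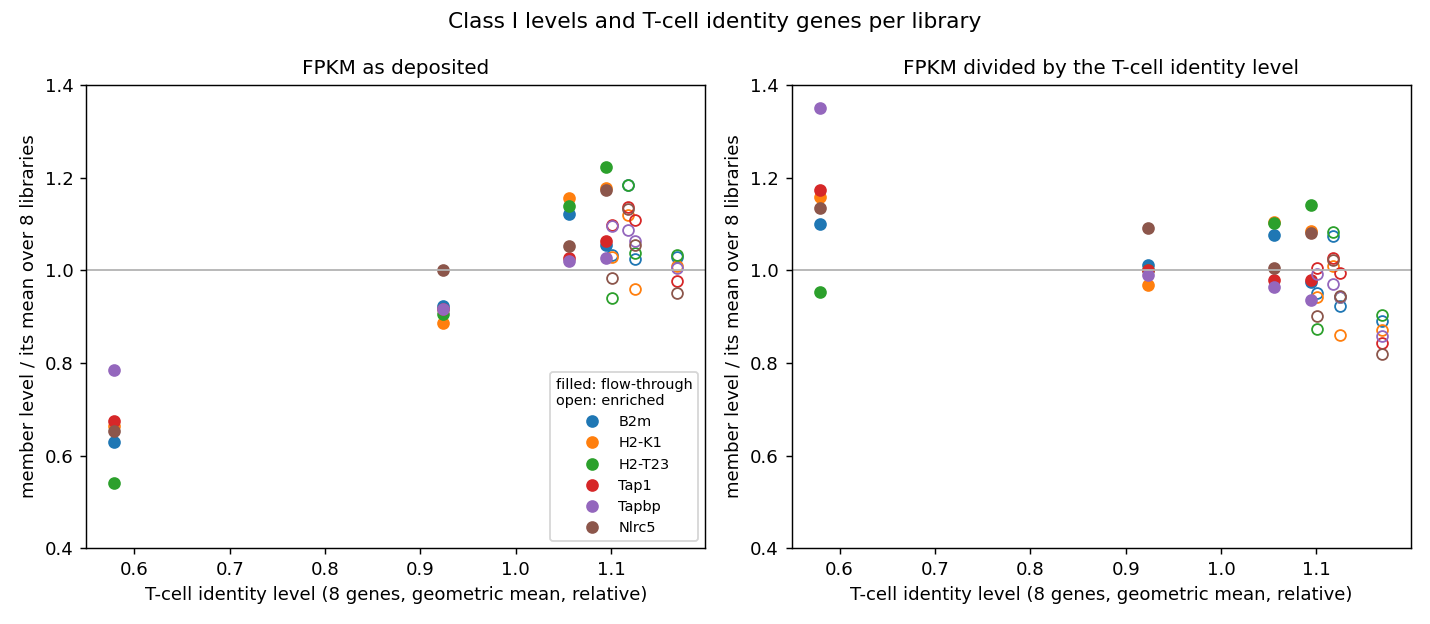
Level of 6 members in each library relative to their mean over 8 libraries (vertical axis) against the relative T-cell identity level (horizontal axis), as deposited (left) and divided by that level (right), filled for flow-through and open for enriched. The library at 0.579 is flow-through replicate 1, which is lowest on the left and, for 5 of the 6 genes shown, highest on the right.

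Genes used as markers of other cells were also compared between the fractions, where 14.1% of all genes were called higher and 13.7% lower in enriched libraries. The summed FPKM of 10 myeloid markers was 205 to 665 in flow-through and 613 to 1374 in enriched libraries (6 of 10 higher, limma). For 8 NK-cell markers it was 84.8 to 217 and 248 to 489 (5 of 8 higher), for 3 CD4 T-cell markers 9.51 to 16.6 and 27.2 to 53.7 (3 of 3 higher) and for 5 γδ T-cell markers 49.97 to 78.8 and 67.1 to 142 (2 of 5 higher). For 10 erythroid markers it was 934 to 2965 and 233 to 1621 (2 of 10 lower) and for 8 hematopoietic progenitor markers 712 to 3433 and 584 to 3255 (4 of 8 lower). The 8 B-cell markers summed to 21.9 to 60.1 and 27.9 to 71.6 FPKM, with none of the 6 tested past the threshold. Flow-through replicate 1 had the lowest myeloid, NK-cell and CD4 T-cell sums and the highest erythroid sum. Without it the flow-through sums started at 300 for myeloid, 128 for NK-cell and 11.6 for CD4 T-cell markers. The erythroid sums then ended at 1611 in flow-through. The erythroid share was close to that of all genes. The summed ranges overlapped between the fractions except for the NK-cell and CD4 T-cell markers. No gene of these lists was at 0 in all libraries. Which cells the RNA of these genes came from is not known. The paper lists Ncr1 and Klrb1c, of the NK-cell list, and Blk, of the γδ list, as upregulated in the IL-18Rαhi-enriched cells. Tyrobp was in both the myeloid and the NK-cell list. The part of other cells in the class I values was not tested.

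MHC class II genes, which show peptides to CD4+ T cells and mark antigen-presenting cells, differed in the same libraries. Their summed FPKM was 220 to 680 in flow-through and 822 to 2325 in enriched libraries. With flow-through replicate 1 left out, the flow-through sums started at 478. Of these 7 genes 6 rose, beside 14.1% of all genes, with a median log2 fold change of 1.68 over the 7. The class I members, measured in the same libraries, had a median of 0.19 with 0 of 10 called.

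Ratios within a library do not depend on its scaling, and 2 were tested. B2m over the summed 5 heavy chains was 0.997, 1.02, 1.05 and 0.951 in flow-through and 1.00, 1.01, 1.04 and 1.05 in enriched libraries. B2m and these 5 chains thus stood near 1 to 1 per length in every library. This holds for the 5 chosen chains only. Other heavy chains were not in the sum, such as H2-Q6 (means of 221 FPKM in flow-through and 221 in enriched libraries) and H2-Q4 (210 and 167 FPKM). The groups overlapped (1.00 ± 0.0418 and 1.02 ± 0.0219, log2 difference 0.03, exact two-sided permutation p = 0.514, unchanged at 0.514 when adjusted over the 2 ratios). Tap1 over Tap2 was 1.26, 1.44, 1.31 and 1.42 in flow-through and 1.46, 1.45, 1.55 and 1.57 in enriched libraries. All enriched libraries lay above all flow-through libraries (the nearest values being 1.44 and 1.45), and the enriched library was higher in 4 of 4 mice. The means were 1.36 ± 0.0870 and 1.51 ± 0.0597 (log2 difference 0.15), with an exact two-sided permutation p of 0.0286, the smallest that 70 arrangements allow, and of 0.0571 when adjusted over the 2 ratios, which missed 0.05. By mouse the exact sign-flip p was 0.125, the smallest that 4 pairs allow. Psmb9, the antisense partner of Tap1, was itself at 107 ± 23.9 and 138 ± 2.36 FPKM, and its part in the Tap1 values was not tested.

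Of the 45 ratios between 2 members, 2 did not overlap between the fractions (4.44%), whereas 33.2% of all ratios between 2 tested genes did not. One was Tap1 over Tap2 and the other H2-K1 over H2-D1, which was chosen after its values were seen and has no test. H2-K1 over H2-D1 was 1.39, 1.47, 1.37 and 1.57 in flow-through and 1.23, 1.28, 1.24 and 1.28 in enriched libraries, with means of 1.45 ± 0.0888 and 1.26 ± 0.0237, and it was lower in the enriched library in 4 of 4 mice. The same values seen as shares of the summed heavy chains were 46.7% ± 1.07 and 44.1% ± 0.553 for H2-K1 and 32.2% ± 1.49 and 35.1% ± 0.489 for H2-D1. H2-Q7 made 14.3% ± 0.782 and 13.9% ± 0.445, H2-T23 6.14% ± 0.645 and 6.14% ± 0.377, and H2-M3 0.635% ± 0.0626 and 0.692% ± 0.0494. H2-K1 shared no 150-base stretch of its transcripts with another gene, and 1.79% of the stretches in H2-D1 occur in H2-Q1.

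**Figure D4:**
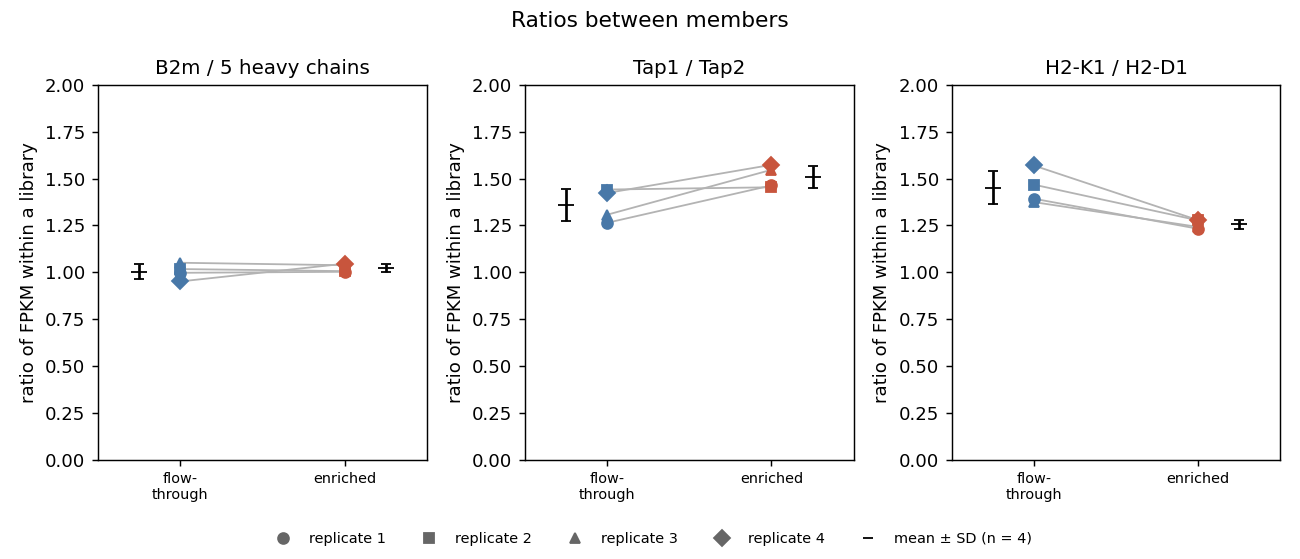
Ratios of FPKM within a library (vertical axes from 0) for B2m over the 5 summed heavy chains, Tap1 over Tap2 and H2-K1 over H2-D1, with grey lines joining the fractions of a mouse and bars for mean ± SD (n = 4). The first overlaps between fractions, Tap1 over Tap2 is higher in all enriched libraries and H2-K1 over H2-D1 is lower in all of them.

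The genes most like a member over the 8 libraries were found by the root mean square difference of log2(FPKM + 1) values, each centred on its mean, among the 9329 genes that averaged 5 FPKM or more. For H2-K1 they were Arhgef18 (0.0534), Crlf3 (0.0542) and Sfxn3 (0.0560), for B2m Malt1 (0.0531), Parp3 (0.0571) and Ppp2r5a (0.0604), and for Nlrc5 Traf1 (0.0443), Galnt6 (0.0516) and Traf3ip3 (0.0550). A member's own spread on this scale was 0.148 (Tap2) to 0.350 (H2-T23), and that of the median gene 0.211. The member nearest to H2-K1 and H2-T23 was H2-Q7 (0.0729 and 0.0781), H2-Q7 and Nlrc5 were nearest to each other (0.0657), as were H2-D1 and B2m (0.0660) and Tap2 and Tapbp (0.0656). B2m was also nearest to Tap1 (0.0837) and H2-M3 (0.0976). All these genes share the 8 libraries and the low value of flow-through replicate 1.

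The other class I and class I-like heavy chains had 10 tested genes of 17 in the table, and none passed, with a median log2 fold change of -0.10. H2-Q6, a Qa-2 chain like H2-Q7, was at 221 ± 63.3 and 221 ± 27.7 FPKM (log2 fold change 0.04, limma adjusted p = 0.890). H2-Q4, a chain of the same cluster, was at 136, 234, 204 and 267 FPKM in flow-through and 152, 158, 164 and 196 FPKM in enriched libraries. Its log2 fold change of -0.29 did not pass (limma adjusted p = 0.298), but at -0.48 without flow-through replicate 1 (adjusted p = 0.0213) and -0.63 after T-cell scaling (adjusted p = 0.0265) it did. Blocking on the mouse, 2 of the 10 rose, near the 22.2% of all genes called higher in that fit. They were Hfe, an iron-regulating class I-like chain (log2 fold change 0.88, adjusted p = 0.00115), and Fcgrt, the neonatal Fc receptor (0.50, adjusted p = 0.0150). Neither chain is loaded with peptide, and both were named after their values were seen.

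Of 10 genes for peptide loading and trimming, 2 rose and none fell (median 0.17), beside 14.1% of all genes higher and 13.7% lower. Pdia3, the oxidoreductase joined to tapasin in the loading complex, was at 233 ± 25.7 FPKM in flow-through and 306 ± 15.3 FPKM in enriched libraries (log2 fold change 0.40, SE 0.09, limma adjusted p = 0.0147). Lnpep, an aminopeptidase of endosomes, was at 15.4, 20.7, 20.6 and 20.7 FPKM in flow-through and 21.6, 25.8, 27.6 and 25.6 FPKM in enriched libraries (0.37, SE 0.12, adjusted p = 0.0494), and without flow-through replicate 1 it missed the threshold (adjusted p = 0.0594), as it did without each other library but enriched replicate 1 (0.0549 to 0.122), with a pseudocount of 0.1 (0.0501) and without a filter (0.0803). Neither gene passed after T-cell scaling (adjusted p = 0.851 for Pdia3 and 0.882 for Lnpep), nor did Pdia3 after quantile normalization (0.0569). The chaperones Calr and Hspa5 did not pass, at 382 ± 48.4 and 397 ± 38.2 FPKM for Calr and 299 ± 43.3 and 329 ± 34.8 FPKM for Hspa5.

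Of 10 genes for peptide supply, 1 rose and 2 fell (median 0.09), a share close to the 27.8% of all genes called in either direction. Psmb8, a catalytic subunit of the immunoproteasome, was at 168, 267, 239 and 264 FPKM in flow-through and 320, 322, 305 and 326 FPKM in enriched libraries. All enriched libraries were above all flow-through ones (log2 fold change 0.46, SE 0.14, limma adjusted p = 0.0427). Its partner Psmb9, named after its values were seen, missed the threshold (0.40, adjusted p = 0.0916). It passed with the mouse as a block (adjusted p = 0.0384) and, at 0.23, without flow-through replicate 1 (limma adjusted p = 0.0484). The cytosolic peptidases Lap3 and Thop1, which trim or destroy peptides, fell: Lap3 from 37.3 ± 9.82 to 20.4 ± 2.57 FPKM (-0.81, SE 0.18, adjusted p = 0.0132) and Thop1 from 26.2 ± 9.71 to 13.0 ± 2.58 FPKM (-0.91, SE 0.26, adjusted p = 0.0312). Psmb8 missed the threshold without flow-through replicate 3 or any 1 enriched library (adjusted p = 0.0786 to 0.1001), after quantile normalization (0.126), without a filter (0.0781) and after T-cell scaling (0.522), and Thop1 without flow-through replicate 3 or enriched replicate 2, 3 or 4 (0.0547 to 0.0882), without a filter (0.0638) and after T-cell scaling (0.0605). The proteasome activator genes Psme1 (240 ± 37.7 and 243 ± 7.75 FPKM) and Psme2 (225 ± 28.6 and 249 ± 15.0 FPKM) did not pass.

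Of 19 regulators of class I genes, 4 rose and none fell (median 0.03), beside 14.1% and 13.7% of all genes. With flow-through replicate 1 left out, 3 rose and 1 fell. Blocking on the mouse, 5 rose and 1 fell, the interferon-γ receptor chain gene Ifngr2 (log2 fold change -0.35, limma adjusted p = 0.0489), which was named after its values were seen. The 4 were Creb1 (20.5 ± 1.89 to 26.6 ± 2.58 FPKM, log2 fold change 0.36, limma adjusted p = 0.0248), Nfyb (28.3 ± 1.44 to 36.1 ± 2.46 FPKM, 0.34, adjusted p = 0.0125), the kinase gene Jak2 (28.2 ± 2.09 to 35.2 ± 1.58 FPKM, 0.31, adjusted p = 0.0188) and Nfkb1 (74.1 ± 5.70 to 91.2 ± 7.37 FPKM, 0.30, adjusted p = 0.0354). After T-cell scaling none of these 4 passed (adjusted p = 0.855 to 0.982), and Jak2 and Nfkb1 were then below 0. Creb1 missed the threshold without flow-through replicate 4 or enriched replicate 3 or 4 (0.0538 to 0.0641), Jak2 without flow-through replicate 3 or enriched replicate 2, 3 or 4 (0.0519 to 0.0584) and Nfkb1 without these or flow-through replicate 1 (0.0506 to 0.0994) and after quantile normalization (0.0564). Jak1, the kinase of both interferon receptors, was at 134 ± 21.3 and 133 ± 6.09 FPKM.

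Of 6 receptors of class I molecules, 3 rose (median 0.82), beside 14.1% of all genes. Klrc1, the inhibitory NKG2A chain that with CD94 binds Qa-1, was at 5.02, 11.9, 8.61 and 11.3 FPKM in flow-through and 24.3, 27.7, 20.4 and 34.6 FPKM in enriched libraries, without overlap (log2 fold change 1.48, SE 0.25, limma adjusted p = 0.00499). Klrc2, the NKG2C chain, went from 1.33 ± 0.696 to 4.78 ± 1.64 FPKM (1.31, adjusted p = 0.0108), and Pirb, an inhibitory class I receptor of myeloid and B cells, from 3.85 ± 1.88 to 9.90 ± 3.13 FPKM (1.22, adjusted p = 0.0293). Pirb missed the threshold without flow-through replicate 3 or enriched replicate 2, 3 or 4 (adjusted p = 0.0651 to 0.0826) and without a filter (0.0631). Klrd1, the gene of CD94, did not pass, at 96.0 ± 31.9 and 92.4 ± 13.7 FPKM (log2 fold change 0.01, limma adjusted p = 0.986). It was named after its values were seen. H2-T23, which encodes the ligand of the NKG2 receptors, was at the values given above and did not pass. The coreceptor chains did not pass, with Cd8a at 179, 345, 297 and 336 FPKM in flow-through and 385, 366, 384 and 361 FPKM in enriched libraries (0.41, adjusted p = 0.140) and Cd8b1 at 546 ± 147 and 618 ± 44.2 FPKM (0.22, adjusted p = 0.435). NK-cell and myeloid markers rose in the same libraries, as given above, and their part in the receptor values was not tested.

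**Figure D5:**
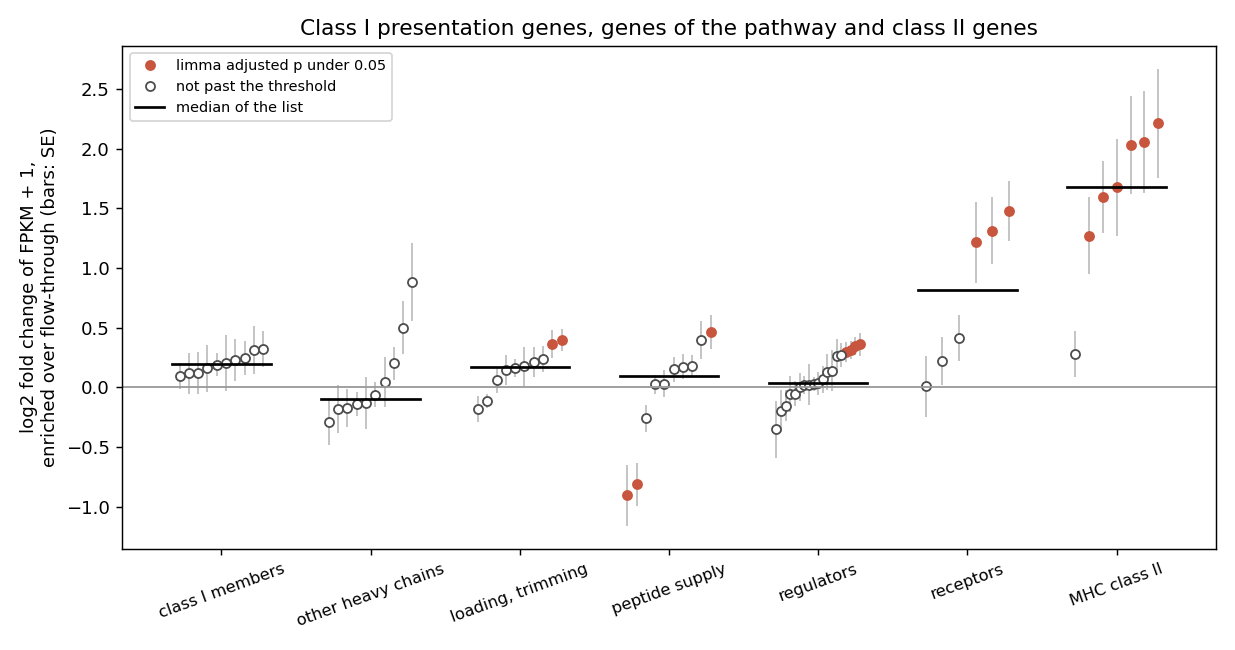
Log2 fold change of FPKM + 1, enriched over flow-through (vertical axis), for the tested genes of each list, with SE bars, filled where the limma adjusted p was under 0.05, and a line at the list's median. None of the 10 class I members is filled, 3 of 6 receptors are, and 6 of 7 class II genes lie above 1.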

How the data were processed

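RNA of 8 stranded poly(A) libraries was sequenced as paired ends. The authors mapped reads to mm10 with TopHat, estimated FPKM with Cufflinks 2.1.1 with correction for multi-mapped reads and fragment bias, and deposited 1 table of FPKM values. The annotation release is not given in the sources used here, and GENCODE M21, on the same build, held 98.9% of the gene identifiers. Low FPKM values did not return whole fragments (31.6% to 36.0% within 0.1 of a whole number, against a median of 21.5% to 22.9% over the depths tried), so no count model was applied and depth is an estimate.

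Groups and replicate numbers came from the labels. log2(FPKM + 1) was tested two-sided with limma 3.58.1 in R 4.3.3 (variance trend, no block) over the 12166 genes that averaged 1 FPKM or more, with Benjamini-Hochberg adjustment. A fold change on this scale understates the change of low genes. Ratios were compared by exact permutation. The procedure was tested on simulated data. Fractions with the same number were taken as those of 1 mouse. The correlations of their deviations were 0.660, 0.589, 0.308 and 0.471. Those of fractions with different numbers reached 0.412 (flow-through replicate 2 with enriched replicate 4).

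All 10 members are named. From each pathway list at most 4 genes per direction were named by fold change and at most 2 that did not pass by level. Of the genes so chosen, 1 is not reported here by name, and counts include it. Members, lists and tests were chosen with earlier results of these data known. Alternatives were a pseudocount of 0.1, a mean of at least 5 FPKM, no filter, quantile normalization, T-cell scaling, a replicate block, each library left out, H2-Q6 and H2-Q7 summed, and H2-K1 and H2-D1 alone as heavy chains. Coefficients of variation without flow-through replicate 1 were added after seeing the data.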

Additional observations from a re-analysis of the deposited data

Results flagged for a closer look

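B2m in enriched replicate 4 was at 4032 FPKM, far from the other enriched libraries, which lay between 3486 and 3516 FPKM. Lnpep in flow-through replicate 1 was at 15.4 FPKM, below the other flow-through libraries at 20.6 to 20.7 FPKM. These were 2 of 70 groups of 4 libraries examined by Dixon's criterion, for which chance gives about 3.5.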

How the results depend on the processing

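No call for a member changed with a pseudocount of 0.1, with a mean of at least 5 FPKM, without a filter, with a replicate block or when any library was left out. After quantile normalization 1 member was called higher (H2-D1). T-cell scaling turned all members: H2-K1 -0.23, H2-D1 -0.023, H2-Q7 -0.19, H2-T23 -0.14, H2-M3 -0.019, B2m -0.12, Tap1 -0.10, Tap2 -0.25, Tapbp -0.16 and Nlrc5 -0.23. It also turned H2-Q6 (-0.30), Calr (-0.29), Hspa5 (-0.20), Psme1 (-0.31), Psme2 (-0.19), Jak2 (-0.025), Nfkb1 (-0.046), Jak1 (-0.34) and Cd8b1 (-0.12). Cd8b1 is itself among the T-cell identity genes that set this scaling, so its value there is not independent of it. Quantile normalization turned H2-Q7 (-0.072), H2-Q6 (-0.056), Calr (-0.18), Hspa5 (-0.051), Psme1 (-0.095) and Jak1 (-0.067).

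When single libraries were left out, values ranged from -0.051 to 0.22 for H2-K1, -0.049 to 0.27 for H2-Q7, -0.047 to 0.34 for H2-T23, -0.010 to 0.15 for Tap2 and -0.060 to 0.22 for Nlrc5, each below 0 without flow-through replicate 1. For other genes they ranged from -0.15 to 0.19 for H2-Q6, -0.00093 to 0.14 for Calr, -0.11 to 0.074 for Jak1 and -0.067 to 0.11 for Psme1.

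All genes called numbered 1720 higher and 1664 lower. They numbered 542 and 1085 with T-cell scaling, 2705 and 2763 with the replicate block, and 1124 to 1802 and 940 to 1781 when a library was left out. Genes of the 5 pathway lists called higher numbered 10, or 3 with T-cell scaling, 7 without a filter, 15 with the replicate block and 4 to 10 with a library left out. Those called lower numbered 2, or 1 without a filter, 4 with the replicate block and 1 to 5 with a library left out. The ratio of Tap1 to Tap2 kept its log2 difference of 0.15 under the replicate block (exact sign-flip p = 0.125), and with a library left out it was 0.12 to 0.18, each at an exact permutation p of 0.0571, the smallest that 35 arrangements allow. The ratio of B2m to the heavy chains kept its side under every alternative run. Of the genes named here, Psmb9, Hfe, Fcgrt and Ifngr2 gained a call with the block and none lost one. The cause of these changes was not tested, except that fewer libraries limit the permutation p. Neither depth nor the number of fragments behind a value is known exactly.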
